A study of Mus musculus with 2 samples.

Results

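Penk, Bmp7, Prg4, Adh1, Dscam, Ncmap and P4ha2 are 7 genes known mainly from tissues outside the immune system whose signal was far higher in CD4+ helper T cells than in cytotoxic CD8+ T cells of the mouse spleen. They were selected on that difference from the 17176 genes named on the array, so the difference is described here and not tested, and it supports nothing by itself. All probes naming these genes were examined, which gave 10 of 41174 probes and 19 of 43379 spots. The study profiled total RNA from wild-type mice of the strain labelled C57B6, in 2 groups of 1 sample each: the helper cells, which carry CD4, and the cytotoxic cells, which carry CD8, both sorted from splenocytes, with no treatment named. Each sample was hybridised to 1 single-colour Agilent array, so no spread between animals or cultures exists and no p-value was computed. The sorting markers, the purity and the number and age of the mice are not given in the labels.

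The members do unrelated work. Penk encodes proenkephalin, a precursor that prohormone convertases cut into the enkephalins, peptides that act on opioid receptors; it is best known from brain and adrenal gland and is also transcribed by activated helper T cells and regulatory T cells. Bmp7 encodes a secreted bone morphogenetic protein that signals through type I and type II receptor kinases to SMAD transcription factors, Prg4 encodes lubricin, the mucin-like glycoprotein that lubricates joint surfaces, and Adh1 encodes the class I alcohol dehydrogenase of the liver, which oxidises ethanol and retinol. Dscam is an immunoglobulin-superfamily adhesion receptor of neurons, Ncmap a membrane protein of non-compact myelin in Schwann cells, and P4ha2 a catalytic subunit of the prolyl 4-hydroxylase that modifies procollagen in the endoplasmic reticulum.

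The sequences upstream of the start sites are shown because they let the members be compared in a property the selection did not use. The RefSeq promoter table of build GRCm38.p6 held windows for 4 of the 7 genes, Adh1, Dscam, P4ha2 and, with 2 start sites, Ncmap; Penk, Bmp7 and Prg4 had no entry. Each sequence is the 250 bases before the start, 5′ to 3′ on the gene's strand, and capitals mark the GC box GGGCGG and the core ACGTG, searched on both strands. Adh1 lies at chr3:138277335-138277584 on the plus strand, Dscam at chr16:97170736-97170985 on the minus strand, and P4ha2 at chr11:54100674-54100923 on the plus strand. The Ncmap windows are chr4:135385673-135385922 and chr4:135398228-135398477, both on the minus strand.
Adh1: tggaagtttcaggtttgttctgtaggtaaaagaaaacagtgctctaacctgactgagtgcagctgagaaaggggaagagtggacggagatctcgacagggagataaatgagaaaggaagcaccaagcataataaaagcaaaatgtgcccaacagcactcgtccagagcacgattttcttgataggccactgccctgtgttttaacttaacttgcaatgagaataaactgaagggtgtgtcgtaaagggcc
Dscam: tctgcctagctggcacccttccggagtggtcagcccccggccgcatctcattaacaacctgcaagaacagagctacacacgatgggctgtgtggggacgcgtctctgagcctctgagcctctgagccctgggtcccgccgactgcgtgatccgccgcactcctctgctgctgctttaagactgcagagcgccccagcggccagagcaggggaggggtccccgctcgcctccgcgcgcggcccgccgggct
Ncmap window 1: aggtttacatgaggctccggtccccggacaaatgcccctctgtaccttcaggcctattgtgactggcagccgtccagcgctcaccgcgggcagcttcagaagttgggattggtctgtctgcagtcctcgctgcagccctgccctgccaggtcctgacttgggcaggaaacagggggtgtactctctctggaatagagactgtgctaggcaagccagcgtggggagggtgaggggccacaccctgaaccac
Ncmap window 2: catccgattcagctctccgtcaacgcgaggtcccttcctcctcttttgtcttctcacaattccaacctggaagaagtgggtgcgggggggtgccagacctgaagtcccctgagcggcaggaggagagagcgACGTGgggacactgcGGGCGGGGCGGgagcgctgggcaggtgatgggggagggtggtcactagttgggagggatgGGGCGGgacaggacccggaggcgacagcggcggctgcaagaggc
P4ha2: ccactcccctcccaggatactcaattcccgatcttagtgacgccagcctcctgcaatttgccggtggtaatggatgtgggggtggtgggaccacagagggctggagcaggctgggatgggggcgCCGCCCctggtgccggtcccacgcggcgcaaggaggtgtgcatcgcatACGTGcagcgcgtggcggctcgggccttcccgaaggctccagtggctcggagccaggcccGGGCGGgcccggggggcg

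These windows did not share one base composition. The Adh1 window had a GC content of 44.8% and 5 CpG dinucleotides, with 23.2% of the 32851 windows of 27025 genes lower in GC. The P4ha2 window had 70.0% GC and 21 CpG, with 90.8% of windows lower, and the Dscam window had 68.0% GC and 21 CpG. The Ncmap windows had 61.2% and 66.0% GC with 8 and 17 CpG, and the median window of the table had 52.4% GC and 6 CpG. The GC box occurred 3 times in the second Ncmap window, at -104, -99 and -44 from the start with the first pair overlapping by 1 base, and 2 times in the P4ha2 window, at -126 and -18. ACGTG, the core of the hypoxia response element, occurred at -119 in the second Ncmap window and at -78 in the P4ha2 window. Across all windows of the same length, 32.7% held the GC box and 16.6% held ACGTG. Other motifs were searched in the same way. The letters AGATAA, which GATA factors bind, were found in the Adh1 window at -150, and 9.99% of all windows held them. The letters TGTGGT, bound by RUNX factors, were found in the P4ha2 window at -161, and 14.0% of all windows held them. The letters CACGTG, which contain ACGTG (6.02% of windows), TGACTCA (4.46%), TGACGTCA (1.55%) and TATAAA (12.4%) were in none of the 5 windows.

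Of the 43379 non-control spots, 63.1% stood well above background for CD4+ cells and 58.65% for CD8+ cells, and the median local background was 48 and 53 intensity units. Of 9 T cell markers, 9 were measured in both cell types and 1, Cd28, was 2-fold apart. Cd4 had a processed signal of 307 in CD4+ and 66.0 in CD8+ cells, 4.12-fold higher in CD4+ cells, and Cd8a had 535 and 5.00e+04, 106-fold higher in CD8+ cells, so both marker genes followed the labels. The available spread was technical: the log2 difference between the arrays had an SD of 0.18 over spots of the same probe (154 probes), and over different probes of a gene the SD was 0.23 (3972 genes). Folds are given after each array was scaled to its 75th percentile, a signal of 508 for CD4+ and 449.9 for CD8+ cells, and so differ slightly from plain ratios of the signals. In these bulk samples, fewer cells of a type and less RNA per cell cannot be told apart.

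All 19 member spots were well above background in CD4+ cells, and 15 of 19 were in CD8+ cells. No spot carried a saturation or outlier flag. Local background around the member spots ran from 39 to 62 for CD4+ cells and from 42 to 59 for CD8+ cells, and at any member spot the arrays' backgrounds were at most 11.5 apart. Penk, Bmp7, Prg4 and Adh1 were measured well above background on both arrays, and all 4 were over 10-fold higher in CD4+ cells, as were 13 of all 11957 genes measured on both arrays (0.109%); 3.83% passed 2-fold in that direction. Dscam, Ncmap and P4ha2 were well above background in CD4+ cells alone, so their folds are lower bounds, and all 3 bounds passed 10-fold, as did 8 of 925 such genes (0.865%); 16.3% passed 2-fold. Because the genes were chosen for these ratios, nothing is read from these shares.

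**Figure D1:**
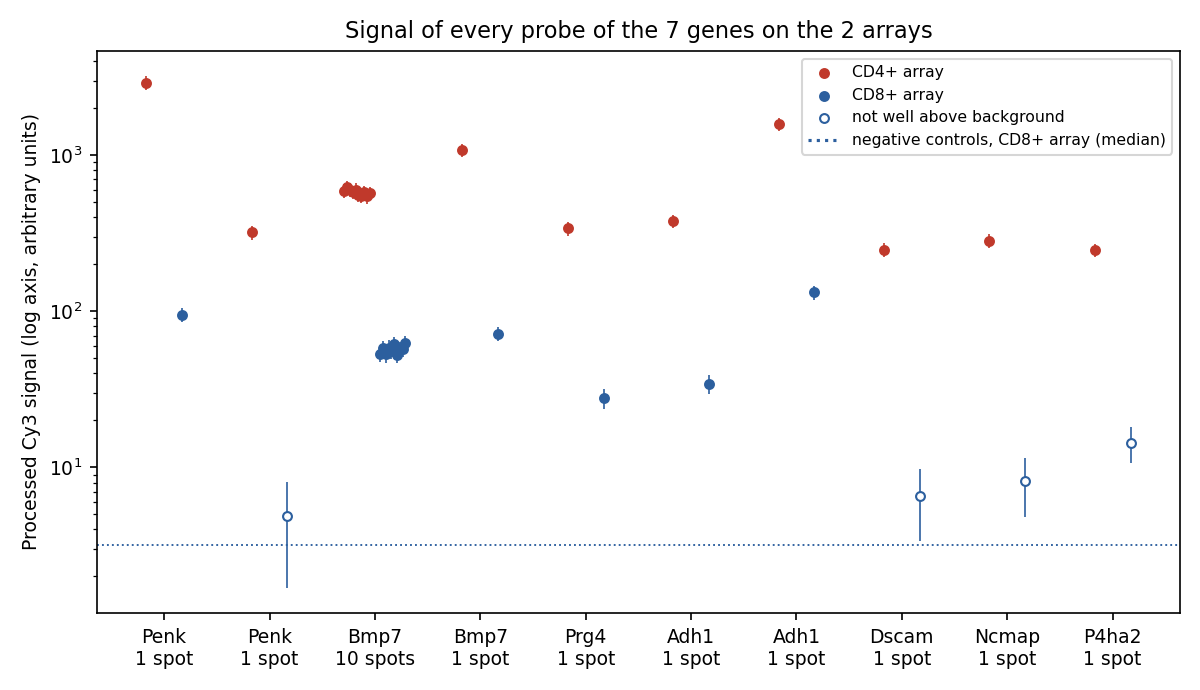
Processed Cy3 signal (intensity units, log axis) of each spot of the 7 genes in the 2 samples, with bars giving the scanner software's error estimate of each spot and open symbols marking spots not well above background; the dotted line is the median CD8+ signal of the negative controls, 3.19. Each spot was brighter on the CD4+ array, and the CD8+ signals of Dscam, Ncmap, P4ha2 and the second Penk probe lie at the bottom of the range.

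Among the secreted products, Penk had the largest difference of the members measured on both arrays. Its first probe (A_51_P102987) had a processed signal of 2915 ± 292 in CD4+ cells and 95.1 ± 10.04 in CD8+ cells, where the error is the estimate the scanner software gives for a single spot. Before any background subtraction the spot read 2894 against a local background of 54 in CD4+ cells and 137 against 51 in CD8+ cells. The log2 difference was 4.76 ± 0.21, or 27.1-fold, rank 2 of 11957 genes, behind the sialyltransferase gene St8sia6 at 30.1-fold. The low CD8+ value was therefore a measured signal, 2.69 times its local background. A second probe (A_52_P286166) read 320 ± 32.1 in CD4+ cells and 4.88 ± 3.18 in CD8+ cells, the latter not well above background. Its difference was at least 19.3-fold, and 58.1-fold if the dim value were taken at face value.

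Bmp7 had the most repeated measurement, because 1 of its probes was printed in 10 spots. That probe (A_51_P492366) read 580.8 ± 24.9 in CD4+ cells and 57.0 ± 3.34 in CD8+ cells (SD over 10 spots of the same sample). The CD4+ spots ran from 545 to 624 and the CD8+ spots from 52.9 to 62.5. They repeat the measurement of 1 sample each, for a gene picked for this difference, so their separation supports nothing. The log2 difference was 3.17 ± 0.11 (SD over spots), or 9.02-fold, with single spots between 8.03-fold and 10.04-fold. The other probe (A_52_P278354) read 1078 ± 108 and 72.0 ± 7.89 and gave 3.73 ± 0.21, or 13.2-fold, rank 8 of 11957. The probes were thus 0.55 apart on the log2 scale, more than the SD between probes of a gene, and Bmp7 was over 10-fold by its brighter probe alone.

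Prg4 was measured by 1 probe in 1 spot. It read 340 ± 34.1 in CD4+ cells and 27.7 ± 4.20 in CD8+ cells, where the spot's brightness of 75 stood only 1.27 times over its local background of 59. The log2 difference was 3.44 ± 0.26, or 10.9-fold, rank 11 of 11957. Of the members measured on both arrays, Prg4 had the dimmest CD8+ value, and its fold was also the least stable of the 4 under other background corrections.

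The enzyme genes were Adh1 and P4ha2. Adh1 had 2 probes that gave near-equal differences: A_52_P629895 read 1581 ± 158 in CD4+ and 132 ± 13.6 in CD8+ cells, 3.40 ± 0.21 or 10.6-fold (rank 12 of 11957), and A_51_P428555 read 378 ± 37.9 and 34.1 ± 4.71, 3.29 ± 0.25 or 9.79-fold. They were 0.11 apart, less than the SD between probes of a gene. The brighter Adh1 probe stood 3.56 times over its local background even in CD8+ cells. P4ha2 read 246 ± 24.9 in CD4+ cells and 14.4 ± 3.76 in CD8+ cells by 1 probe, a log2 bound of 3.89, or at least 14.8-fold. Its dim value lay close to 14.7, the lowest signal among CD8+ spots well above background, so the bound and the face-value fold of 15.1 nearly coincide. The face-value log2 difference had an error of 0.40, so folds under the bound lie within the error of the spot.

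The adhesion receptor Dscam and the myelin gene Ncmap rested on 1 spot each. Dscam read 248 ± 24.97 in CD4+ cells and 6.60 ± 3.22 in CD8+ cells, a log2 bound of 3.901 or at least 14.9-fold. Ncmap read 283 ± 28.5 and 8.19 ± 3.36, a log2 bound of 4.09 or at least 17.02-fold. On the CD8+ array both spots were within 1.12 times of their local background, although no more than 2 of the 153 negative control spots, whose median signal was 3.19, were brighter than either. Repeated spots of other probes with CD8+ signals between 0 and 20 had an SD of 0.53 in log2 level (95 probes), against 0.09 between 100 and 1000 (51 probes), so the face-value folds of 33.3 for Dscam and 30.6 for Ncmap are poorly determined.

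**Figure D2:**
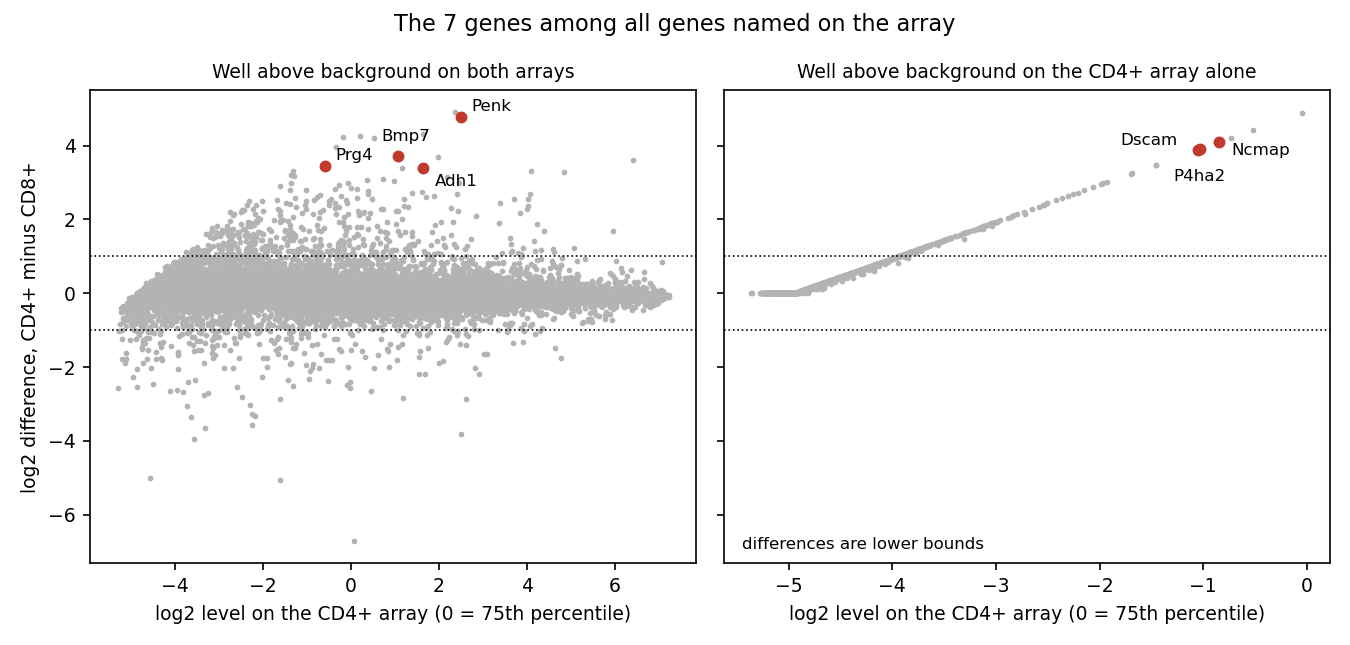
Log2 difference, CD4+ minus CD8+, against the log2 level on the CD4+ array (0 is the 75th percentile) for genes well above background on both arrays (left) and on the CD4+ array alone (right, lower bounds), with the 7 genes in red and dotted lines at a 2-fold difference. On the right most points follow a line because the bound is the CD4+ level over a floor, so the order there is nearly the order of CD4+ brightness.

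The position of the spots on the array bears on several of the members' values. For each spot, the median log2 difference of the other spots within 5 rows and 5 columns that were well above background on both arrays was taken, a check added after seeing the data. These neighbour medians lay between -0.15 and 0.19 for the central 95% of spots, with a median of -0.02. A single patch of 258 spots (0.595%), in rows 247 to 284 and columns 37 to 48 of the array, had neighbour medians of at least 0.5. Of the patch spots well above background on both arrays, 118 of 126 read higher in CD4+ cells, against 47.3% of such spots over the whole array. The patch spots are largely neighbours of one another, so this count follows from how the patch was defined and is no separate evidence for it. The Dscam spot (neighbour median 0.56) and the second Penk spot (0.64) lie in that patch. With the neighbour median subtracted, the Dscam bound became 10.12-fold and that of the second Penk probe 12.4-fold. The first Penk probe, outside the patch (-0.17), became 30.4-fold. Ncmap (-0.07, 17.9-fold) and P4ha2 (-0.03, 15.1-fold) barely moved, while Prg4, with a neighbour median of 0.18, fell under 10-fold at 9.59. For Bmp7 the same step brought the probes from 0.55 to 0.32 apart on the log2 scale, at 11.4-fold and 9.13-fold. For Adh1 it took them from 0.11 to 0.15 apart. The second Penk probe gave only a bound, so the gap between the Penk probes could not be measured. The first Penk probe's value lay 0.49 above that bound before the step and 1.30 above it after. The neighbour medians at member spots were at most 0.64, far under the differences the genes were picked for. The step could therefore not bring a member to equality between the arrays.

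**Figure D3:**
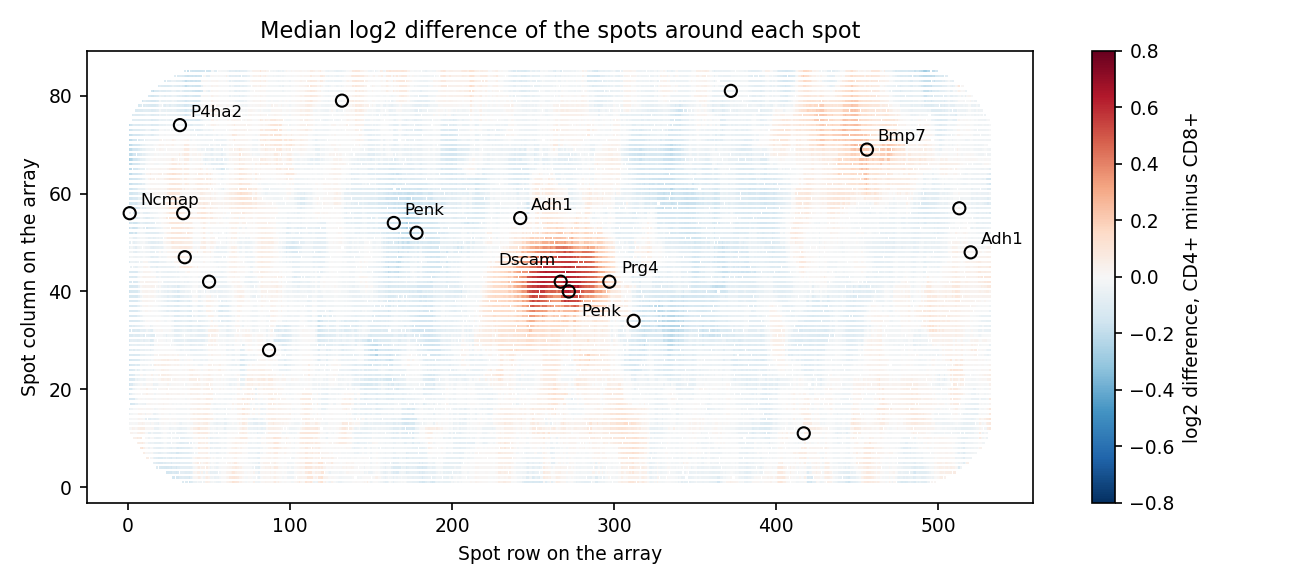
Median log2 difference, CD4+ minus CD8+, of the spots around each spot, drawn by spot row and column of the array, with the 19 member spots circled. The unlabelled circles are the 10 spots of the repeated Bmp7 probe; the Dscam spot and 1 of the Penk spots sit in the red patch between rows 247 and 284.

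No other scaling or normalization between arrays moved a member by more than the SD between spots, but the background correction moved all 7. Across 11 other settings no member reversed, and the lowest fold of any member was 2.96, for P4ha2. All settings used the same spots of genes picked for a large difference, so the lack of reversals supports nothing. With a normexp correction, which models signal over background and adds an offset of 50, the folds were 16.1 for Penk, 7.70 for Bmp7, 4.35 for Prg4, 7.85 for Adh1, 3.91 for Dscam, 3.64 for Ncmap and 2.96 for P4ha2. On the authors' value table, which holds brightness with no background subtracted, they ran from 4.17 for P4ha2 to 19.0 for Penk. Adh1 had the narrowest range, from 7.85-fold to 11.7-fold, and Dscam the widest, from 3.91-fold to 61.4-fold. The 61.4-fold came from the median signal minus local background, a setting with no bound. There the Dscam spot stood only 4 units over its local background in CD8+ cells, so this fold is not comparable with the bounds.

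**Figure D4:**
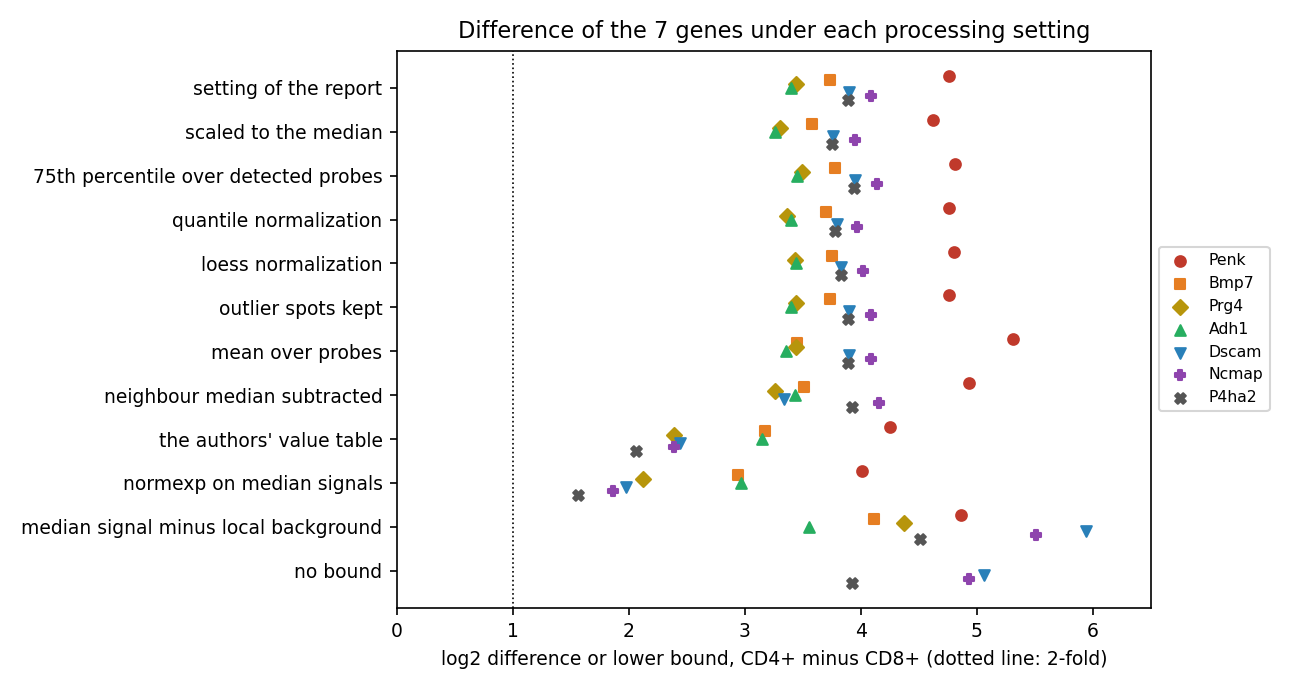
Log2 difference, CD4+ minus CD8+, of each of the 7 genes under the main setting and each alternative, with a dotted line at 2-fold. Values are lower bounds for Dscam, Ncmap and P4ha2, except with no bound and with the median signal minus local background. Values lie to the right of that line throughout, and the normexp and value-table points are the lowest for each gene.

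For the members measured on both arrays, the genes with the most similar pair of levels were found by Euclidean distance over the 2 arrays. Nearest to Penk were St8sia6 (distance 0.32 log2 units) and Ffar2, a receptor for short-chain fatty acids (0.75). Nearest to Bmp7 were Fasl, the ligand of the death receptor Fas (0.43, 10.4-fold higher in CD4+ cells), and Tiam1 (0.45). Nearest to Prg4 were the inhibitory receptor Ctla4 (0.37, 15.6-fold) and Ces2b (0.48), and nearest to Adh1 were Ffar2 (0.36, 13.0-fold) and Upb1 (0.52). Genes selected for a high CD4+ and a low CD8+ signal have such genes as neighbours by construction, and the levels come from different probes. For Dscam, Ncmap and P4ha2 no nearest gene is named, since their CD8+ levels were not well above background and the distances found, from 0.51 to 0.70, were about as large as the SD between spots there.

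The partner genes of each member's pathway were mostly near equality, as were most measured genes. Of 170 genes in 10 lists, 110 were well above background on at least 1 array; 3 were higher by 2-fold or more in CD4+ cells and 6 in CD8+ cells, against 4.66% and 2.24% of all 13063 genes so measured, whose median difference was -0.01. With normexp the counts were 1 and 1, Sostdc1 and Eng, and the authors' value table gave 1 in CD4+ and 2 in CD8+ cells. None of the lists has a test.

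Around Penk, 10 of 14 named opioid genes were measured and 0 were 2-fold higher in CD4+ cells, with a median difference of -0.01. Pcsk1, a convertase that cuts proenkephalin, read 39.8 in CD4+ and 73.6 in CD8+ cells, 2.09-fold higher in CD8+ cells (1.53-fold with normexp). Pcsk2, another convertase gene of the list, was near equality, at 88.75 in CD4+ and 71.63 in CD8+ cells, a log2 difference of 0.133. Cpe, the carboxypeptidase that trims the peptides, read 87.8 and 40.8, 1.90-fold higher in CD4+ cells. The receptor genes Oprm1, Oprd1 and Oprk1 stood well above background in neither sample, and the precursor gene Pomc differed by -0.01 on the log2 scale.

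Around Bmp7, 6 of 13 other BMP ligands were measured, with 0 at 2-fold either way and a median of 0.00; Gdf5 read 39.8 and 33.2 and Gdf7 46.0 and 51.7. Among 6 measured receptors, the coreceptor Eng (endoglin) read 50.5 in CD4+ and 304 in CD8+ cells, 6.80-fold higher in CD8+ cells, and Acvr2b was at least 2.08-fold higher there. With normexp these folds were 3.56 and 1.27. The type I receptor genes Acvrl1 and Bmpr1a were 1.96-fold and 1.14-fold higher in CD4+ cells, and the type II receptor gene Bmpr2 was 1.59-fold higher. The receptors' median was 0.27, and -0.02 with normexp. The 8 measured transducers and targets stayed under 2-fold, with a median of 0.10 that turned to -0.04 with the arrays' medians set equal; among them the target Id1 was 1.32-fold and Id3 1.12-fold higher in CD4+ cells. Of 11 measured antagonists, Sostdc1, which encodes a secreted inhibitor of BMPs, read 110.0 in CD4+ and 10.6 in CD8+ cells and was at least 6.62-fold higher in CD4+ cells (2.06-fold with normexp). The antagonist list had a median of -0.03, with Twsg1 1.68-fold higher in CD4+ cells and Fstl1 at least 1.88-fold higher in CD8+ cells.

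For Prg4, 13 of 24 matrix proteoglycan and hyaluronan genes were measured. Prg3, which despite its name encodes an eosinophil granule protein, read 109 and 31.6 and was 3.07-fold higher in CD4+ cells (1.76-fold with normexp). Cd44, the hyaluronan receptor that also marks antigen-experienced T cells, read 2878 and 1320, 1.93-fold higher in CD4+ cells, and the list's median was 0.14 (-0.04 with normexp). For Adh1, 16 of 26 genes of alcohol and retinoid metabolism were measured. Aldh1a2, which makes retinoic acid, read 82.5 and 187, 2.55-fold higher in CD8+ cells, while Cyp26b1, which degrades it, was at least 2.23-fold higher in CD4+ cells at 37.0 against 6.32. Neither passed 2-fold with normexp, at 1.82 for Aldh1a2 and 1.16 for Cyp26b1. The other alcohol dehydrogenase genes differed from Adh1: Adh5 read 13070 and 12550 with a log2 difference of -0.12, and Adh4 and Adh7 stood well above background in neither sample. The list's median was 0.08.

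For Dscam, 11 of 23 adhesion and guidance genes were measured and 0 reached 2-fold. Its close relative Dscaml1 read 34.7 and 28.0, 1.09-fold higher in CD4+ cells, and the netrin gene Ntn1 and its receptor gene Dcc stood well above background in neither. Chl1 was at least 1.997-fold higher in CD4+ cells, just short of 2-fold, and the list's median was 0.23. For Ncmap, 14 of 16 named myelin genes were measured, 0 at 2-fold, with a median of -0.01; Egr2 was 1.53-fold, Pmp22 1.42-fold and Mag 1.39-fold higher in CD4+ cells, and Mbp differed by -0.23. For P4ha2, 15 of 18 named genes of collagen hydroxylation and folding were measured, 0 at 2-fold in CD4+ cells. The sister subunit gene P4ha1 read 1272 and 1023, a difference of 0.14, and P4hb, the shared partner subunit, differed by -0.24. P3h4 and P3h1, of the prolyl 3-hydroxylase family, were 5.96-fold and 2.52-fold higher in CD8+ cells, at 13.0 against 68.6 and 26.5 against 59.1. With normexp these folds were 1.90 and 1.48.

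Marker lists of stromal, endothelial and nervous tissue cells were compared between the samples; liver, joint and adrenal markers were not. Summed signals, here and below, run over all named markers of a list, also those not well above background. Unlike the folds they are not scaled between the arrays, whose 75th percentiles were 508 and 449.9, so small gaps between sums carry no direction. Over all 13063 genes well above background on at least 1 array, 4.66% were at least 2-fold higher in CD4+ and 2.24% in CD8+ cells. In lists this short a count of 0 is near these shares and says little about the cells. Of 10 measured fibroblast and stromal markers 0 were 2-fold apart in either direction, with summed signals of 629 in CD4+ and 646 in CD8+ cells. The same held for 6 endothelial markers (1055 and 1019) and 5 glial and neuronal markers (384 and 505). Of 10 regulatory T cell markers, 7 were at least 2-fold higher in CD4+ cells and Itgae was higher in CD8+ cells, with a median of 2.23. With normexp 5 were at least 2-fold higher in CD4+ cells, and the median was 1.08. Foxp3 read 354 in CD4+ and 5.51 in CD8+ cells, at least 21.3-fold higher in CD4+ cells (4.14-fold with normexp). Of 8 measured markers described for tissue-type regulatory T cells, 6 were at least 2-fold higher in CD4+ cells (5 with normexp). Among them were Il1rl1 at 19.1-fold and Klrg1 at 18.5-fold, or 7.09-fold and 7.15-fold with normexp. Areg stood well above background in neither sample, and Il10 is counted in both lists. The share of regulatory cells in either sort was not measured, and its part in the members' levels was not tested.

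Some markers of other blood cells also read higher in CD4+ cells. Of all 13063 measured genes, 4.66% passed 2-fold in that direction and 2.24% in the other. At least 2-fold were 3 of 6 dendritic cell markers (summed signals 3938 and 1591), 3 of 6 plasma cell markers (2805 and 1458), 2 of 3 NK cell markers (581 and 176), 2 of 5 mast cell and basophil markers (328 and 171) and 2 of 10 macrophage and monocyte markers, Lyz2 at 4.49-fold and Marco at 2.34-fold. In that last list Ly6c2 was 3.39-fold higher in CD8+ cells, at 1.39e+04 in CD4+ and 4.17e+04 in CD8+ cells. The summed signal was 6.39e+04 in CD4+ and 7.79e+04 in CD8+ cells, but its direction rests on Ly6c2. Without that gene the sum would be higher in CD4+ cells. With normexp the counts were 1 for plasma cells, 1 for NK cells and 0 for mast cells and basophils, while the authors' value table gave 2, 1 and 0. Of 4 measured markers of group 2 innate lymphoid cells, 3 were at least 2-fold higher in CD4+ cells: Il1rl1, Gata3 and Rora. These same genes are counted above among the tissue-type regulatory T cell markers. The other measured marker, Il13, differed by -0.24 on the log2 scale. Il5, Areg, Arg1 and Il17rb stood well above background in neither sample. Of 8 B cell markers 0 were 2-fold apart, with a median of -0.65, of 8 neutrophil and eosinophil markers 0 were, and of 7 erythroid and platelet markers 1 was higher in CD8+ cells. The part of such cells in the members' levels was not tested.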

How the data were processed

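Total RNA of each sorted cell type was labelled with Cy3 and hybridised to 1 array, per the labels' protocols. The deposited scanner files hold linear intensity per spot, made with Feature Extraction 10.1.1.1 per the file headers, while the submitters' processing notes name version 9.1. The headers name build mm9. The authors' processed intensity is background-subtracted and not scaled between arrays. The authors' value table equals the median spot intensity at 45018 of 45018 spots on each array.

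Levels are the log2 of the deposited processed signal, scaled so that the 75th percentile of an array's non-control spots is 0. Outlier spots were left out (99 on the CD4+ and 92 on the CD8+ array). A gene took its brightest probe, with preference for probes well above background on both arrays. Where the CD8+ probe was not well above background, the CD4+ level was set against that probe's level or, if higher, the lowest CD8+ level called well above background, and is given as "at least". Probes were named through RefSeq (GRCm38.p6, names alone), with 24844 of 41174 matched to 1 symbol; 11 of 294 listed genes had no named probe.

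The members and the gene lists were chosen with earlier results of these data known. Genes were named by rule: all members, Cd4 and Cd8a, the 2 nearest genes to each member (printed for members measured on both arrays), and the most different and brightest genes of each list; others named for their role, such as pathway partners, were chosen after their values were seen. Alternatives were normexp (offset 50, run on median signals because the files hold no mean signal column), other scalings, quantile and loess (span 0.3) normalization, the value table, other filters, a 4-fold threshold and, added after seeing the data, subtraction of the neighbour median. With 1 array per cell type no test was run, so the precision is limited by the number of arrays. Tools were limma 3.58.1 in R 4.3.3 and, in Python 3.11.15, pandas 2.3.3 with numpy 2.4.6. The computation was tested on simulated data.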

Additional observations from a re-analysis of the deposited data

How the results depend on the processing

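With 1 array per cell type no array could be left out. No paired analysis was possible because each group holds 1 sample. Over 73 member values under 11 alternatives, 47 moved by less than the SD between replicate spots, 26 moved by more and 0 reversed. The genes were picked for this difference on the same spots, so the 0 reversals support nothing. On the log2 scale, normexp gave 4.01 for Penk, 2.94 for Bmp7, 2.12 for Prg4, 2.97 for Adh1, 1.97 for Dscam, 1.86 for Ncmap and 1.56 for P4ha2. The authors' value table gave 4.25, 3.17, 2.39, 3.15, 2.44, 2.39 and 2.06 in that order. The mean over probes gave 5.31 for Penk, with its second probe at face value, and 3.45 for Bmp7. The median signal minus local background gave 4.11 for Bmp7 and 4.37 for Prg4. It also gave, with no bound set, 5.94 for Dscam, 5.51 for Ncmap and 4.51 for P4ha2. Dropping the bound in the main setting gave 5.06 for Dscam and 4.93 for Ncmap. Subtracting the neighbour median, chosen after seeing the data, gave 3.51 for Bmp7, 3.26 for Prg4 and 3.34 for Dscam. Of genes measured on both arrays, 458 were at least 2-fold higher in CD4+ and 232 in CD8+ cells. These counts were 220 and 122 with normexp, 269 and 140 on the value table, 96 and 79 for brighter probes alone, 1281 and 617 with no filter on dim probes, and 111 and 50 at 4-fold. The causes of these moves were not tested. Scaling to the median moved the median of all genes from -0.02 to -0.17, and the share of calls higher in CD4+ cells from 66.4% to 53.4%; with brighter probes alone it was 54.9%. Dim CD8+ signals limit Dscam, Ncmap, P4ha2 and the second Penk probe to bounds.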
